A study of Arabidopsis thaliana with 16 samples.

Results

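The genes described here had higher transcript levels in the glu1-2 mutant than in the wild type in leaves and in roots alike. They were chosen by their measured values: the mean log2 intensity of glu1-2 minus that of the wild type had to be at least 0.3 in each organ, and all 4 mutant arrays had to lie above all 4 wild type arrays in each organ. Of 22266 probe sets on the array, 73 met these conditions, and 9 of them were left out by name because they belong to gene groups such as UDP-glycosyltransferases, ABC transporters and cold-regulated genes. The remaining 64 are the members. Of these, 49 have 1 gene, 2 have several genes and 13 carry no gene name in the annotation used here, so that the selection by name could not be applied to those 13. AT4G14090, an anthocyanin glucosyltransferase, was kept because the annotation gives it no symbol of the kind left out.

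The samples were glu1-2 mutant leaves, wild type Col-0 leaves, glu1-2 mutant roots and wild type Col-0 roots, with 4 Affymetrix ATH1 arrays each. The line glu1-2 is homozygous for 1 T-DNA insertion in the gene of Fd-GOGAT1 and is a knock-down, so that every mutant value comes from a single insertion line. All plantlets were 18 days old and grown in vitro on Murashige and Skoog medium with sucrose under a 16 h photoperiod, and rosette leaves and roots were collected separately 2 h after the light came on. The labels call the mutant GLU1-KO and number the replicas of each group from 1 to 4, which the methods describe as biological replicates handled at the same time. The probe set of Fd-GOGAT1 carries no name in the annotation used here, and the labels were not checked against it.

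Fd-GOGAT1 is the plastid enzyme that makes glutamate from glutamine and oxoglutarate with electrons from ferredoxin. In leaves its main known task is to take back the ammonium released by photorespiration, and mutants lacking it become chlorotic and can die under conditions that favour photorespiration. Glutamate made this way feeds the synthesis of most other amino acids, and the genes below are grouped by what they do in amino acid turnover, phosphate recovery, transport, the cell wall and regulation.

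Values are RMA intensities, a linear measure of probe brightness that can be compared between arrays for 1 probe set but not between probe sets. A difference is the mean log2 value of glu1-2 minus that of the wild type, given with the standard error over 4 arrays on each side, and a fold is the same difference on the linear scale. Because these differences chose the members, they are given as a description without a test. In these whole organs a higher share of a cell type and more RNA per cell cannot be told apart.

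In leaves, 3028 probe sets (13.6%) met the condition of higher values in the mutant, in roots 611 (2.74%), and in both 73 (0.328%). The 73 made up 2.41% of those raised in leaves, beside 2.74% of all probe sets raised in roots. They made up 11.9% of those raised in roots, beside 13.6% of all probe sets raised in leaves. Probe sets raised in 1 organ were thus no more often raised in the other than probe sets at large. Over all probe sets the median difference was -0.02 in leaves and 0.01 in roots. The members had leaf differences between 0.32 and 3.87 with a median of 0.66 (1.58-fold), and root differences between 0.30 and 1.55 with a median of 0.52 (1.43-fold). For 51 members the leaf difference was the larger one and for 13 the root difference was. The leaf difference was more than 2 times the root difference for 20 members, and the reverse held for 0. At least 1 in leaves was reached by 20 members and at least 1 in roots by 3, but AT5G62360 alone reached it in both organs.

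**Figure D1:**
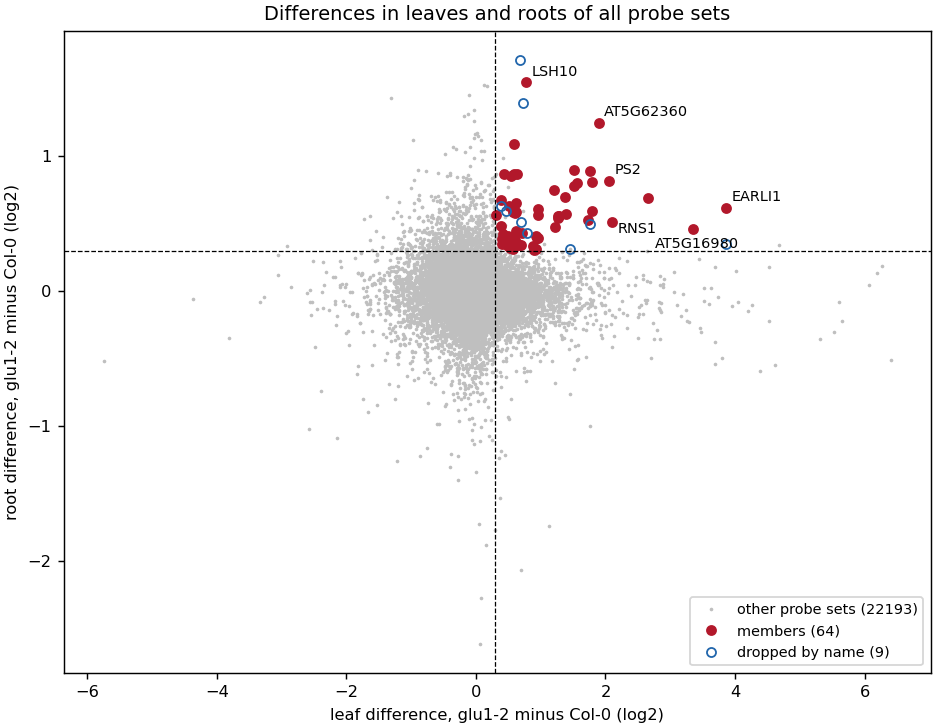
Difference between glu1-2 and Col-0 in leaves (x axis, log2) and in roots (y axis, log2) for 22266 probe sets, with the 64 members filled, the 9 sets left out by name open and dashed lines at 0.3. Most members spread to the right, up to 3.87 in leaves, while root differences reach 1.55.

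The separation between genotypes was narrow for some members. The gap between the lowest mutant array and the highest wild type array ran from 0.02 to 2.95 in leaves (median 0.35) and from 0.01 to 0.94 in roots (median 0.22). Just inside the minimum of 0.3 stood LBD25, with a root difference of 0.30, PAO4 with 0.31 and MAP1C with 0.31. Just outside stood PME3, a pectin methylesterase, with 0.82 in leaves and 0.298 in roots, LPR1, a multicopper oxidase of the root response to low phosphate, with 1.50 in leaves and 0.29 in roots, and AT1G14220, a ribonuclease T2 family gene, with 0.30 in leaves and 0.29 in roots. A further 30 probe sets had differences of at least 0.3 in both organs but overlapping arrays, 17 in leaves only, 6 in roots only and 7 in both.

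Among the 7 members of amino acid and nitrogen turnover, leaf differences ran from 0.32 to 1.37 and root differences from 0.31 to 0.75. ERD5 (AT3G30775) encodes proline dehydrogenase, which starts the breakdown of proline in mitochondria. Its intensity was 173, 142, 175 and 160 in glu1-2 leaves against 65, 62, 64 and 59 in wild type leaves, and 713, 667, 807 and 719 in glu1-2 roots against 465, 424, 434 and 471 in wild type roots. The genotypes lay far apart in both organs, 2.59-fold in leaves (1.37 ± 0.08) and 1.62-fold in roots (0.69 ± 0.07), while mutant leaves stayed below every wild type root. UMAMIT29 (AT4G01430), an amino acid exporter, had 223, 198, 197 and 212 in glu1-2 leaves against 91, 87, 80 and 105 in wild type leaves. In roots it had 430, 454, 459 and 403 in glu1-2 against 269, 291, 252 and 230 in the wild type. Here too the mutant was higher in both organs, by 1.20 ± 0.09 in leaves and 0.75 ± 0.08 in roots.

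PAO4 (AT1G65840), a peroxisomal polyamine oxidase, read 481, 438, 482 and 430 in glu1-2 leaves against 193, 257, 278 and 245 in wild type leaves. In roots PAO4 read 1192, 1136, 1190 and 1052 in glu1-2 against 954, 1031, 809 and 901 in the wild type. The leaf groups were well apart (0.92 ± 0.12), but in roots the lowest mutant array was only just above the highest wild type array (0.31 ± 0.08). PYD4, an aminotransferase placed in pyrimidine breakdown, had differences of 0.88 ± 0.20 in leaves and 0.33 ± 0.08 in roots. AT5G36160, a tyrosine aminotransferase, was higher by 0.50 ± 0.06 in leaves and 0.33 ± 0.03 in roots. FDH, the mitochondrial formate dehydrogenase, was higher by 0.61 ± 0.08 and 0.45 ± 0.07. GAT1_2.1, a glutamine amidotransferase-like gene, had the larger difference in roots, 0.56 ± 0.09, beside 0.32 ± 0.14 in leaves.

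The 4 proteases and protease inhibitors include SCPL7 and scpl35, which encode serine carboxypeptidase-like proteins. SCPL7 (AT3G10450) had 247, 327, 246 and 258 in glu1-2 leaves against 76, 95, 94 and 101 in wild type leaves, and 108, 129, 111 and 110 in glu1-2 roots against 82, 49, 86 and 53 in wild type roots. The wild type roots were uneven, and the root difference of 0.80 ± 0.22 is less precise than that of leaves, 1.56 ± 0.13. For scpl35 (AT5G08260) intensities were 792, 863, 783 and 828 in glu1-2 leaves and 362, 491, 366 and 481 in wild type leaves, while glu1-2 roots had 780, 880, 889 and 779 and wild type roots 567, 525, 539 and 543. Leaves and roots of the mutant reached the same range, 0.96 ± 0.12 above the wild type in leaves and 0.61 ± 0.06 in roots. Of 29 probe sets named as carboxypeptidase-like genes, 4 met the leaf condition, 3 the root condition and 2 both, against 13.6%, 2.74% and 0.328% of all probe sets, with medians over the family of -0.06 in leaves and 0.03 in roots. The family was read because it holds SCPL7 and scpl35, which meet both conditions by selection. SCPL7 also owes its name to a table of genes raised in mutant leaves, so these counts were partly set by choice. MAP1C, a methionine aminopeptidase, was higher by 0.57 ± 0.05 in leaves and 0.31 ± 0.05 in roots. AT5G47550, a cystatin that inhibits cysteine proteases, was higher by 0.44 ± 0.03 and 0.36 ± 0.09.

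The 2 members of phosphate recovery had larger differences in leaves than in roots. PS2 (AT1G73010), a phosphatase induced when phosphate runs short, read 201, 153, 177 and 287 in glu1-2 leaves against 44, 58, 43 and 47 in wild type leaves. In roots PS2 read 161, 149, 183 and 154 in glu1-2 against 95, 84, 93 and 94 in the wild type. The leaf groups were 4.17-fold apart (2.06 ± 0.22) and the root groups 1.76-fold (0.82 ± 0.08). RNS1 (AT2G02990), a ribonuclease that releases phosphate from RNA, had 80, 103, 114 and 122 in glu1-2 leaves against 22, 22, 24 and 29 in wild type leaves. In roots RNS1 had 40, 40, 42 and 37 in glu1-2 against 27, 32, 29 and 24 in the wild type. Wild type values of RNS1 lay at or below 32 in both organs, the level used here to mark dim probe sets, and the differences were 4.29-fold in leaves and 1.43-fold in roots (0.51 ± 0.10).

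Other genes of the phosphate starvation response were read beside these 2. All 6 genes of that list found here owe their names to a table of genes raised in mutant leaves, so their higher values in leaves were set by that choice. The list was drawn up with PS2 and RNS1 known as members, so their meeting the condition in roots was set by that choice. The other 4 did not meet it, with root differences of 0.23 for PEPC1, 0.15 for MGDC, -0.01 for PLDP2 and -0.04 for SPX3. The shares behind these counts are those given above for all probe sets.

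Of the 8 members that carry or process sugars and other solutes, the leaf difference was larger than the root difference for each. SUC1, IRT3, SIP2 and TPPD owe their names to the table of genes raised in mutant leaves, so this was partly set by that choice. SUC1 (AT1G71880), a sucrose-proton symporter, had 657, 531, 562 and 624 in glu1-2 leaves against 277, 293, 321 and 324 in wild type leaves, and 665, 752, 702 and 628 in glu1-2 roots against 472, 478, 476 and 428 in wild type roots. Mutant leaves exceeded every wild type root, although wild type leaves were the lowest group. The differences were 0.96 ± 0.09 in leaves and 0.57 ± 0.07 in roots. OCT1 (AT1G73220), an organic cation and carnitine transporter, read 46, 75, 60 and 67 in glu1-2 leaves against 22, 19, 24 and 21 in wild type leaves. In roots OCT1 read 169, 150, 173 and 185 in glu1-2 against 87, 91, 81 and 104 in the wild type. Wild type leaves lay under 32 and mutant leaves stayed below wild type roots, with differences of 1.51 ± 0.17 in leaves and 0.90 ± 0.10 in roots.

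AT4G34950 and AT2G16660 are nodulin-like members of the major facilitator superfamily. AT4G34950 had 1561, 1414, 1445 and 1558 in glu1-2 leaves against 599, 482, 530 and 488 in wild type leaves, and 178, 167, 186 and 182 in glu1-2 roots against 108, 93, 119 and 98 in wild type roots. It was mainly a leaf transcript in both genotypes, raised 2.86-fold in leaves and 1.71-fold in roots. AT2G16660 was higher by 1.27 ± 0.11 in leaves and 0.54 ± 0.07 in roots. IRT3, a zinc and iron transporter, differed by 1.26 ± 0.14 and 0.56 ± 0.05, SIP2, an alpha-galactosidase acting on raffinose, by 0.94 ± 0.06 and 0.39 ± 0.06, and AT5G18840, a sugar transporter of the ERD6 type, by 0.93 ± 0.10 and 0.40 ± 0.08. TPPD, a trehalose phosphate phosphatase, was dim in every group, between 11 and 30, and differed by 0.66 ± 0.15 in leaves and 0.35 ± 0.13 in roots.

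The cell wall group holds 6 members, with root differences from 0.34 to 1.25 and leaf differences from 0.56 to 1.90. AT5G62360, of the invertase and pectin methylesterase inhibitor family, had 393, 379, 389 and 364 in glu1-2 leaves against 98, 120, 95 and 97 in wild type leaves. In roots AT5G62360 had 174, 166, 140 and 146 in glu1-2 against 73, 56, 69 and 66 in the wild type. Every mutant root array was above every wild type leaf array, and the folds were 3.73 in leaves (1.90 ± 0.08) and 2.37 in roots (1.25 ± 0.11). BGLU44 (AT3G18080), a glycosidase active on mannosides, read 3155, 2538, 2775 and 2756 in glu1-2 leaves against 1858, 1814, 1773 and 1792 in wild type leaves, and 642, 580, 604 and 535 in glu1-2 roots against 363, 282, 304 and 350 in wild type roots. GH9B13 (AT4G02290), an endoglucanase, read 537, 603, 562 and 697 in glu1-2 leaves against 337, 441, 363 and 467 in wild type leaves, and 5195, 4971, 4947 and 4535 in glu1-2 roots against 3114, 2407, 2583 and 2704 in wild type roots. These 2 genes belong to the 13 with the larger difference in roots, 0.87 ± 0.10 for BGLU44 and 0.87 ± 0.09 for GH9B13, beside 0.63 ± 0.07 and 0.58 ± 0.14 in leaves, although BGLU44 is brighter in leaves and GH9B13 in roots.

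EXPA10 (AT1G26770), an expansin that loosens walls, had 1623, 1763, 1597 and 1719 in glu1-2 leaves against 643, 719, 707 and 802 in wild type leaves, and 122, 153, 144 and 141 in glu1-2 roots against 109, 108, 80 and 107 in wild type roots. Its leaf difference was 1.23 ± 0.07, and its root difference 0.48 ± 0.13, with 1 wild type root array below the other 3. AT2G43590, a chitinase family gene, was higher by 0.69 ± 0.09 in leaves and 0.34 ± 0.09 in roots, and AT2G37130, a class III peroxidase, by 0.56 ± 0.15 and 0.36 ± 0.10. Of 11 expansin A probe sets 2 met the leaf condition and 1 the root condition, of 21 beta-glucosidases 3 and 2, and of 15 glycosyl hydrolase family 9 sets 1 and 2, where 13.6% of all probe sets met the leaf condition and 2.74% the root condition. Each family was read because it holds a member, which meets both conditions by selection. EXPA10, BGLU10 and BGLU11 also owe their names to the table of genes raised in mutant leaves, so the leaf counts of expansins and beta-glucosidases were partly set by that choice.

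EARLI1 (AT4G12480) and AT4G12490 encode hybrid proline-rich proteins with a lipid transfer domain and stand close together on chromosome 4, with 1 gene between them. They are the nearest pair among the 49, whose locus identifiers put 14, 6, 10, 7 and 12 on chromosomes 1 to 5. EARLI1 had 417, 566, 521 and 608 in glu1-2 leaves against 25, 35, 35 and 54 in wild type leaves, and 1306, 1220, 1416 and 1314 in glu1-2 roots against 989, 780, 910 and 762 in wild type roots. The leaf difference, 14.6-fold (3.87 ± 0.26), was the largest of all members and the root difference 1.53-fold (0.62 ± 0.10). AT4G12490 had 195, 185, 250 and 226 in glu1-2 leaves against 88, 47, 54 and 69 in wild type leaves, and 196, 199, 277 and 237 in glu1-2 roots against 165, 89, 152 and 97 in wild type roots. Mutant leaves and mutant roots overlapped, and the differences were 1.76 ± 0.22 in leaves and 0.89 ± 0.25 in roots.

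The other 3 genes of this cluster that could be read did not meet the root condition. AZI1 differed by 2.88 in leaves and 0.05 in roots, AT4G12500 by 0.99 and -0.52, and AT4G12530, between 13 and 19 on every array, by -0.21 and -0.05. AT4G12500 met the opposite condition in roots. Near-identical neighbours such as these may share probe signal, and the extent was not tested. AT3G02480, a late embryogenesis abundant family gene, had 345, 457, 842 and 476 in glu1-2 leaves against 140, 122, 134 and 194 in wild type leaves, and 330, 349, 306 and 298 in glu1-2 roots against 216, 191, 205 and 241 in wild type roots. The third mutant leaf array stood high, and the genotypes were apart in both organs (1.79 ± 0.31 in leaves, 0.59 ± 0.09 in roots).

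**Figure D2:**
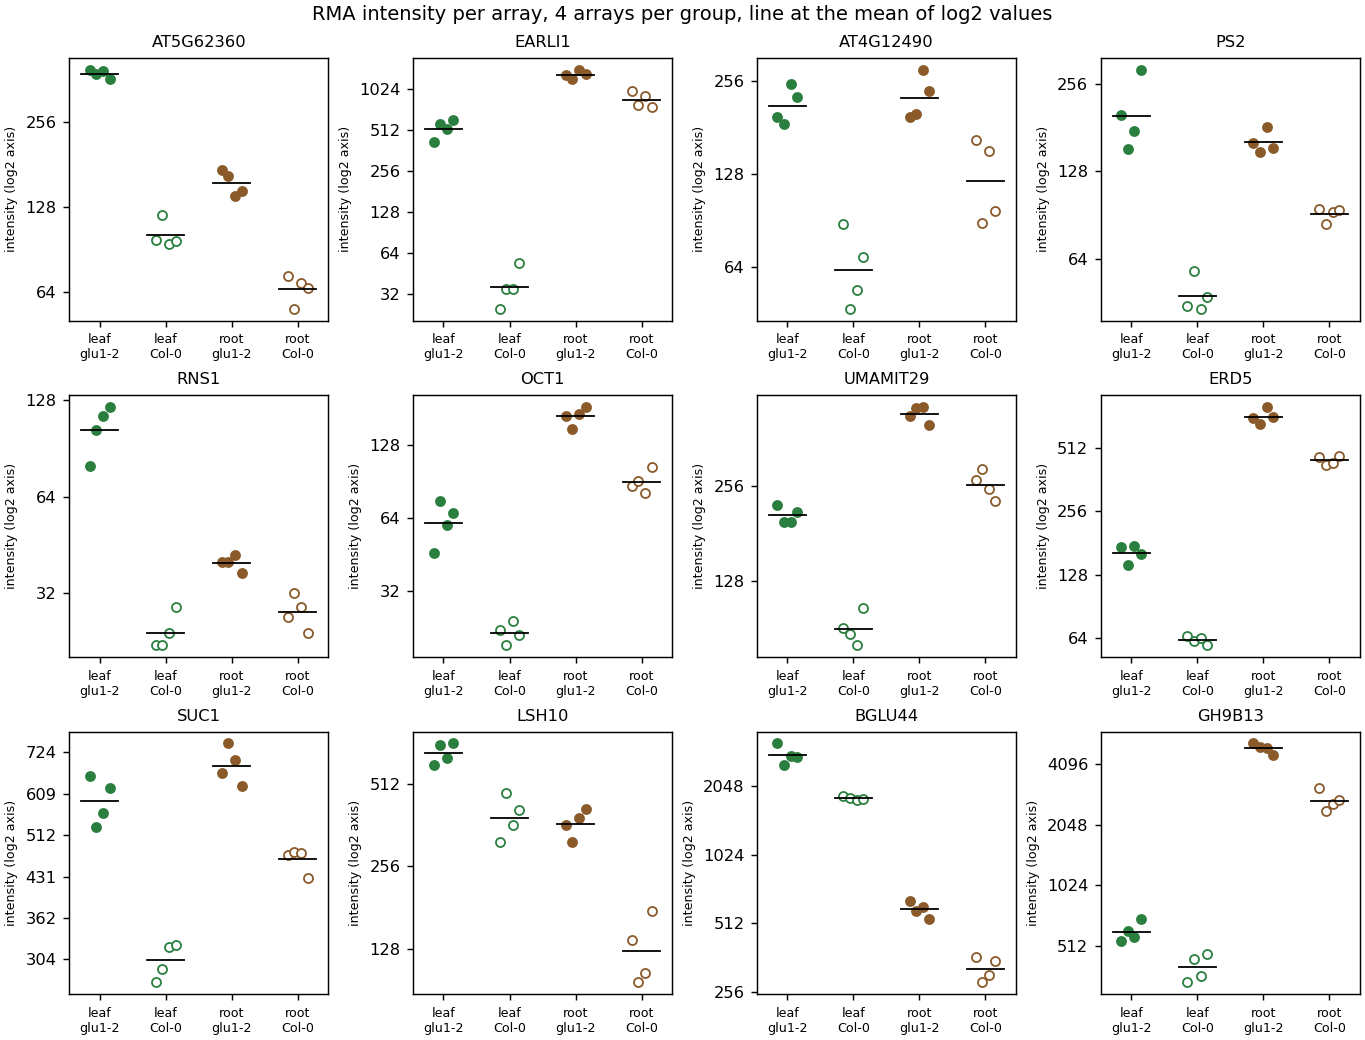
RMA intensity (y axis, log2 spacing, a range of its own in each panel) of 12 members in glu1-2 and Col-0 leaves and in glu1-2 and Col-0 roots, 1 point per array, filled for glu1-2, with a line at the mean of log2 values. In each panel the 4 filled points of an organ lie above its 4 open points, as the selection requires, and the order of the organs differs between genes.

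The other enzymes are led by AT5G16980, a zinc-binding dehydrogenase of the alkenal reductase family. It had 389, 299, 360 and 359 in glu1-2 leaves against 32, 30, 43 and 33 in wild type leaves, and 22, 22, 24 and 24 in glu1-2 roots against 16, 18, 15 and 18 in wild type roots. The leaf groups were 10.2-fold apart (3.36 ± 0.14), whereas both root groups lay under 32 and differed by 0.46 ± 0.07. A second probe set of this enzyme family, shared by AT5G38000 and AT5G37940, was brighter in roots, at 14 to 17 in glu1-2 leaves against 12 in every wild type leaf array, and at 118, 158, 124 and 157 in glu1-2 roots against 106, 64, 93 and 89 in wild type roots. AT5G50130, a short-chain dehydrogenase family gene, had 203, 229, 164 and 175 in glu1-2 leaves against 126, 126, 122 and 122 in wild type leaves, and 163, 167, 152 and 145 in glu1-2 roots against 107, 83, 102 and 109 in wild type roots. Its differences were nearly equal, 0.62 ± 0.11 in leaves and 0.65 ± 0.10 in roots. The same held for AT1G28610, a GDSL lipase gene (0.60 ± 0.09 and 0.58 ± 0.12), and for AT4G14090 (0.58 ± 0.12 and 0.58 ± 0.17).

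Of the 8 regulators, and of all members, LSH10 had the largest root difference. LSH10 (AT2G42610), a DNA-binding protein of the ALOG family, read 597, 706, 633 and 717 in glu1-2 leaves against 313, 473, 363 and 409 in wild type leaves. In roots LSH10 read 362, 313, 385 and 413 in glu1-2 against 138, 97, 105 and 176 in the wild type. The root groups were 2.92-fold apart (1.55 ± 0.21) and the leaf groups 1.72-fold (0.78 ± 0.14). BT4, a BTB and TAZ domain scaffold protein, was higher by 1.38 ± 0.09 in leaves and 0.57 ± 0.06 in roots. AT1G16510, a small auxin up RNA gene, was higher by 1.29 ± 0.12 and 0.56 ± 0.08, and LBD25, a lateral organ boundaries domain factor, by 0.89 ± 0.12 and 0.30 ± 0.08. ORA59, an ethylene response factor of jasmonate and ethylene signalling, had nearly equal values of 79 to 80 on all mutant leaf arrays, against 41 to 63 in wild type leaves (0.71 ± 0.13), and differed by 0.43 ± 0.10 in roots. AT5G61570, a protein kinase family gene, IQD22, a calmodulin-binding protein, and AT1G60890, a phosphatidylinositol phosphate kinase family gene, had leaf differences of 0.67, 0.47 and 0.42 and root differences of 0.34, 0.38 and 0.38.

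**Figure D3:**
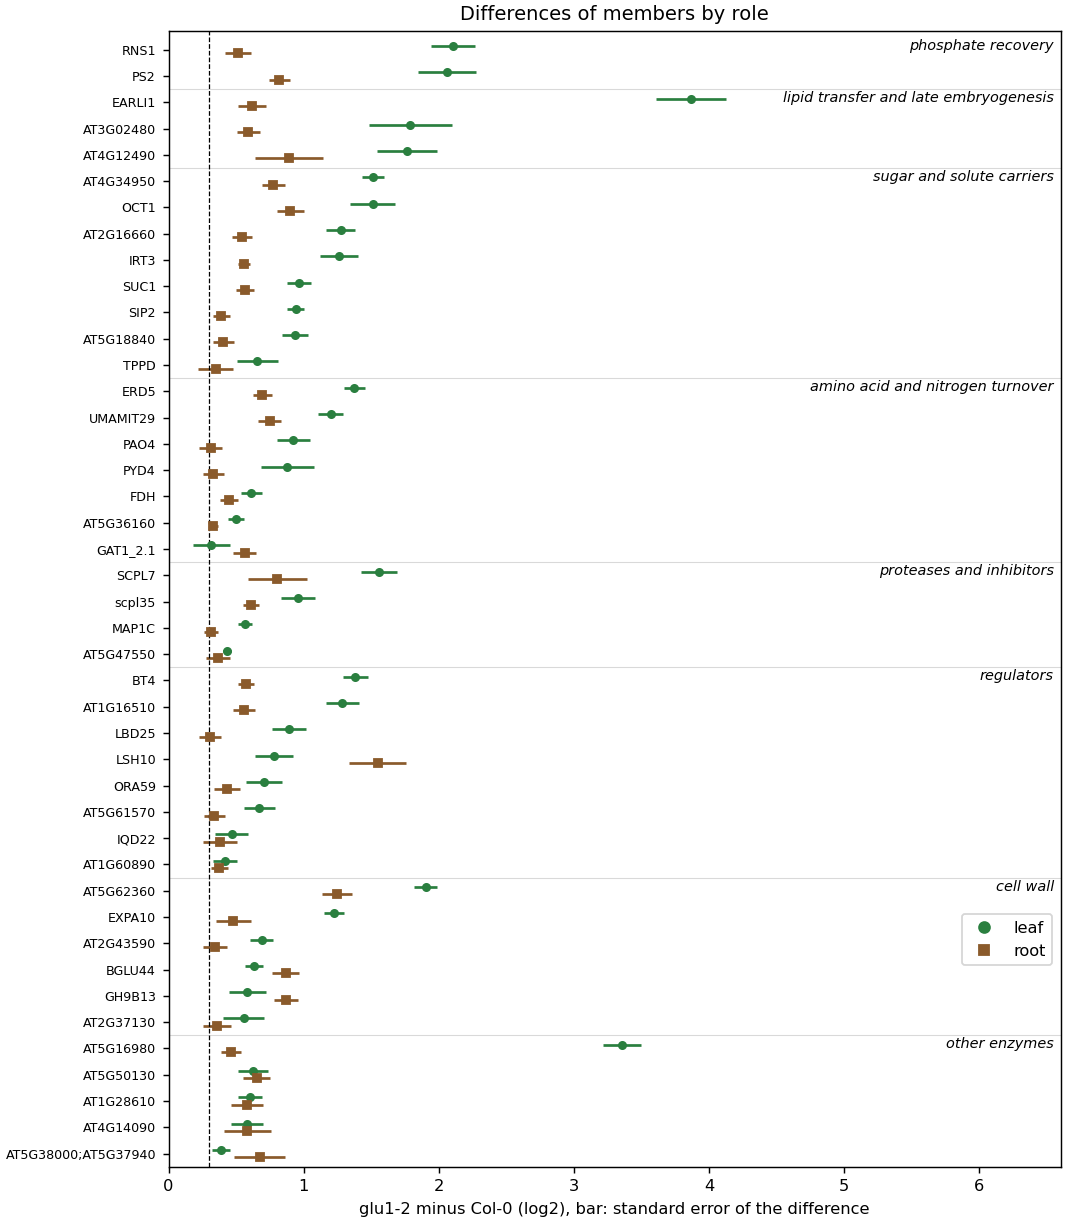
Difference between glu1-2 and Col-0 (x axis, log2, bars for the standard error) in leaves (circles) and roots (squares) for 43 members grouped by role, with the minimum of 0.3 dashed. Leaf differences exceed root differences for all phosphate and solute genes, as for 51 of the 64 members, while LSH10, BGLU44 and GH9B13 have the larger difference in roots. PS2, RNS1, SUC1, IRT3, SIP2 and TPPD owe their names to the table of genes raised in mutant leaves. The pattern of these groups was partly set by that choice.

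Among members without a known role, AT5G20790 read 155, 114, 228 and 237 in glu1-2 leaves against 52, 49, 45 and 57 in wild type leaves, and 39, 30, 56 and 42 in glu1-2 roots against 22, 23, 24 and 24 in wild type roots. It was higher by 1.80 ± 0.26 in leaves and 0.81 ± 0.19 in roots, with mutant arrays far more spread than wild type arrays. AT2G47010 was higher by 1.73 ± 0.12 in leaves and 0.52 ± 0.12 in roots. AT3G22550 had the larger difference in roots, 0.85 ± 0.08, beside 0.54 ± 0.12 in leaves. AT1G24575, AT3G57780, AT3G27220, AT5G62960 and the probe set shared by AT4G16540 and AT2G03020 had leaf differences from 0.38 for AT5G62960 to 0.96 for AT1G24575, and root differences from 0.39 for AT1G24575 to 0.58 for the shared probe set. The 13 unnamed probe sets had leaf differences from 0.40 to 2.66 and root differences from 0.32 to 1.09. Probe set 260408_at gave the first of these maxima, with 86, 168, 168 and 174 in glu1-2 leaves against 28, 33, 15 and 19 in wild type leaves. Probe set 256825_at gave the other, with 618, 553, 639 and 698 in glu1-2 roots against 319, 220, 363 and 289 in wild type roots. Over all 64 members, 11 had a wild type mean under an intensity of 32 in leaves or roots.

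Leaf photosynthesis genes also differed between the root samples. The 3 markers of the leaf list that could be read, RCA, PRK and SBPASE, were higher in glu1-2 roots by 0.64, 0.87 and 0.67, with no overlap between genotypes, and their summed intensity was 2052 to 2214 in glu1-2 roots and 1180 to 1481 in wild type roots. In leaves the same sum was 15381 to 18513 in glu1-2 and 22033 to 24545 in the wild type. RCA gave the largest part of each sum, so the sums follow mainly that probe set. In leaves RCA, PRK and SBPASE differed by -0.20, -0.59 and -0.88, with overlapping arrays for RCA. The part of the root shift of these markers in the root differences of the members was not tested. Of the root markers, 3 could be read (EXPA7, EXPA18 and AT5G17820). None met a condition in either organ, and they summed to 85 to 117 in glu1-2 leaves and 98 to 116 in wild type leaves.

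To place the members by organ, leaves of the wild type were set against its roots on the 8 wild type arrays, a contrast that the selection did not use although it shares those arrays. By limma's moderated test with Storey's q-value under 0.01 over all probe sets, 24 members (37.5%) were higher in leaves and 35 (54.7%) were lower in leaves, against 36.9% and 38.2% of all probe sets. The remaining 5, RNS1, ORA59, AT3G22550 and 2 unnamed probe sets, did not pass, with q between 0.0169 for RNS1 and 0.104 for probe set 251827_at. The median difference, leaf minus root, was -0.35 for members and 0.03 for all probe sets, and the median size without sign was 1.08 and 0.46.

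Among members of exactly 1 gene, the lowest in wild type leaves relative to roots were AT2G37130 (-4.67 ± 0.14, q = 7.89e-13), EARLI1 (-4.58 ± 0.18, q = 1.53e-11), AT2G43590 (-3.48 ± 0.10, q = 8.06e-13) and ERD5 (-2.84 ± 0.07, q = 2.22e-13). AT2G37130 had 93, 130, 103 and 144 in wild type leaves and 3101, 3468, 2696 and 2597 in wild type roots, and AT2G43590 had 218, 210, 228 and 267 in wild type leaves and 2338, 2691, 2311 and 2961 in wild type roots. In leaves the transcript of AT2G37130 was 25.5-fold lower, that of EARLI1 23.8-fold lower and that of AT2G43590 11.1-fold lower than in roots. The highest of them in wild type leaves relative to roots were EXPA10 (2.84 ± 0.11, q = 1.08e-11), IQD22 (2.67 ± 0.10, q = 4.98e-12), BGLU44 (2.49 ± 0.09, q = 4.94e-12) and AT4G34950 (2.33 ± 0.10, q = 2.81e-11). Among the other members, the probe set of AT5G38000 and AT5G37940 (-2.85 ± 0.13) and probe set 256825_at (2.67 ± 0.13) lay in the same ranges. IQD22 had 280, 297, 321 and 250 in wild type leaves and 49, 42, 41 and 48 in wild type roots.

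SCPL7 was 1.39-fold higher in wild type leaves than in wild type roots (0.48 ± 0.17, q = 0.00399). That call was lost without 1 of 3 arrays in turn, at q = 0.0101 without the fourth wild type leaf array, q = 0.0119 without the second wild type root array and q = 0.0123 without the fourth. For RNS1 the opposite held, with q = 0.00316 without the fourth wild type leaf array and q = 0.00656 without the fourth wild type root array, each with lower values in leaves (-0.30 and -0.28).

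Within glu1-2 the same leaf minus root difference had a median of 0.06 over the members. This follows by arithmetic from the leaf and root differences given above, since a member with the larger leaf difference moves towards leaves. Of the 35 members lower in wild type leaves, 26 had a narrower organ difference in glu1-2, and for 12 of them the mean of mutant leaves reached or passed that of wild type roots. Of the 24 members higher in wild type leaves, 6 had a mean in mutant roots at or above that of wild type leaves. The selection makes a mutant group the highest of the 4 group means, and this was mutant leaves for 33 members and mutant roots for 31. All these counts rest on values that chose the members, and no share over all probe sets is given beside them.

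**Figure D4:**
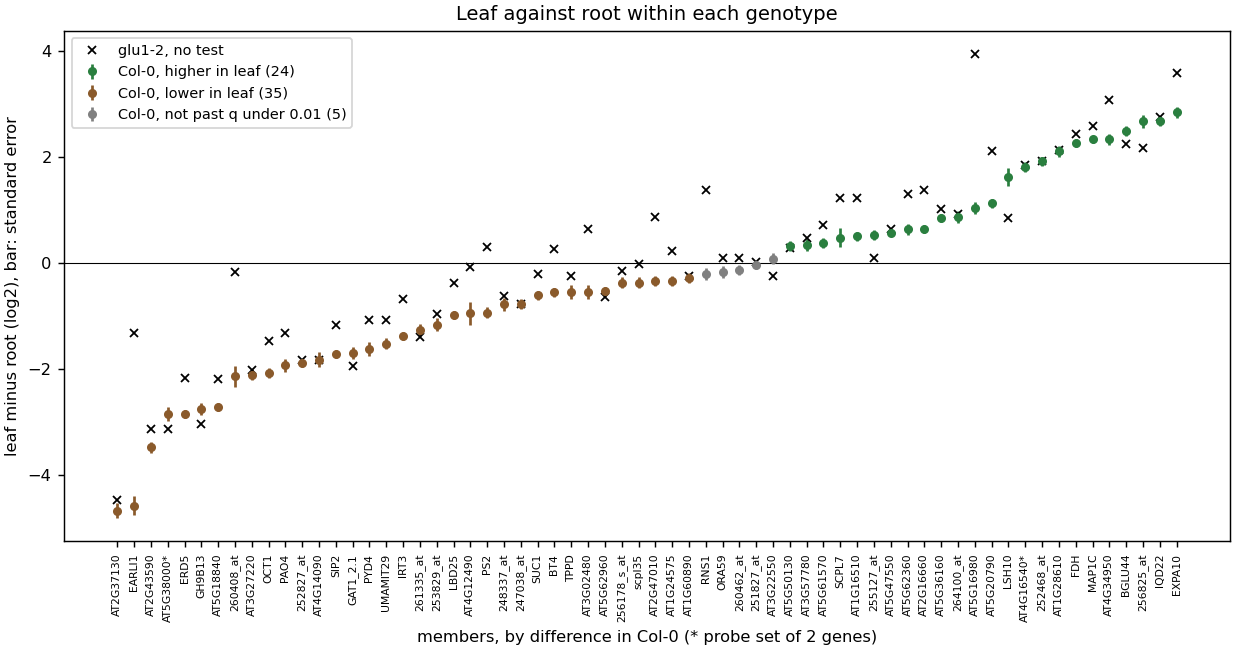
Leaf minus root difference (y axis, log2) of the 64 members in glu1-2 (crosses, no test) and in Col-0 (points with limma's standard error, coloured by the call at q under 0.01), ordered by Col-0. In Col-0 the members run from -4.67 for AT2G37130 to 2.84 for EXPA10, with 35 lower and 24 higher in leaves.

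Pathway lists were read for genes beside the members. The lists of dehydration and abscisic acid response, senescence and the circadian clock name 30, 16 and 17 genes and hold 0 members. In roots 0 of 4, 0 of 5 and 0 of 8 readable genes met the condition for higher values, against 2.74% of all probe sets. So few readable genes cannot show whether these responses rise in roots. The senescence gene DIN2 met the opposite condition in roots (-0.48). Many names in these lists come from the table of genes raised in mutant leaves, so no leaf count is given. In the lists of phenylpropanoids and flavonoids and of amino acid transport, 2 of 2 and 1 of 2 readable genes met the root condition. Both lists hold 0 members. In the list of proline, polyamine, pyrimidine and amino acid breakdown, which was drawn up with the members known, 4 of 10 readable genes met the root condition and are the members ERD5, PAO4, AT5G36160 and PYD4. One gene of this list met the opposite condition in roots, the asparaginase ASPGB1, with 226, 273, 224 and 260 in glu1-2 roots against 318, 312, 372 and 370 in wild type roots (-0.48). The other 5 include GDH2, the beta subunit of glutamate dehydrogenase, with 887, 900, 1037 and 932 in glu1-2 leaves against 390, 428, 424 and 480 in wild type leaves, but a root difference of -0.05. AT5G38710, the second proline dehydrogenase gene, differed by -0.04 in leaves and 0.02 in roots, unlike ERD5. In the list of sugar carriers and raffinose metabolism, drawn up in the same way, 5 of 7 readable genes met the root condition, of which 4 are members. The other is GolS3, and the sugar transporters MSS1 and ERD6 had root differences of -0.12 and -0.34, of which that of ERD6 met the opposite condition.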

How the data were processed

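Total RNA of 16 samples was hybridised to ATH1 arrays. The intensity values were deposited by the authors after RMA (background correction, quantile normalization and summary per probe set), as whole numbers on the linear scale with a lowest value of 6. They were taken to log2 here without further normalization. The median over probe sets lay between 97.0 and 102.0 on leaf arrays, between 106.0 and 110.0 on root arrays, arrays of a group correlated at 0.992 to 0.997, and 30.6% of values lay under 32. The number of arrays limits the precision.

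Of 22279 probe sets, 13 controls were left out. The platform annotation names 1 gene for 13216, several for 491 and none for 8559. A further 600 were named by finding the study's replicate values within 0.51 intensity units. Where the platform also named 1 gene, 738 such matches gave the same locus and 11 gave another. The copy of that table used here holds genes raised in mutant leaves. Symbols follow the RefSeq gene table of TAIR10.1, in which 75 gene entries had no match. Of the 49 members with 1 gene, 31 were named by the platform and 18 by study values.

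Wild type leaves and roots were compared with limma 3.58.1 in R 4.3.3 (no pairing, 8 arrays), with Storey q-values (lambda 0 to 0.95 in steps of 0.05, smoother with 3 degrees of freedom) under 0.01. Python 3.11.15 was used for the rest. On simulated data with 200 of 22266 probe sets changed, this test found 93% of log2 changes of 1 and 100% of changes of 2. In the real contrast the estimated share of unchanged probe sets was only 0.1582. The simulated rates therefore do not carry over to it, and changes smaller than 1 were not simulated.

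Members, gene lists and tests were chosen with earlier results of these data known. Genes were named by rule among members of exactly 1 gene: the 12 with the highest smaller difference, the 5 with the largest difference in each organ, the 3 on each side of the minimum, the 4 most unequal between wild type organs each way, neighbours, family pairs and list genes. GDH2, ASPGB1, DIN2, AT5G38710, AT3G02480, the remaining members named by role or as the leading unnamed probe sets, and the other list and cluster genes given were chosen after their values were seen. Promoters were not analysed here. Alternatives were other minimum differences, no demand for separated arrays, renewed quantile or median scaling, leaving out dim probe sets, platform names alone, a replicate block, Benjamini-Hochberg adjustment and leaving out each array.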

Additional observations from a re-analysis of the deposited data

Results flagged for a closer look

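Of 112 groups of 4 arrays examined for the 28 genes named by rule, 6 held 1 array far from the other 3 by Dixon's test, which chance alone flags in about 1 of 20 groups. AT5G62360 read 120 on the second wild type leaf array, against 95 to 98 on the others. SCPL7 read 327 on the second mutant leaf array, against 246 to 258, and 129 on the second mutant root array, against 108 to 111. EXPA10 read 80 on the third wild type root array, against 107 to 109. LBD25 read 44 on the third wild type leaf array, against 49 to 50. PME3, just outside the members, read 1485 on the third mutant leaf array, against 1725 to 1750.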

How the results depend on the processing

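The number of members moved most with the minimum difference, to 120 at 0.2 and 30 at 0.5. Of the 49 members with 1 gene, 31 were left when platform names alone were taken. That is another way of counting, which passes over unnamed members and those of several genes. The number of members was 94 without the demand for separated arrays, 69 after renewed quantile scaling and 62 after a shift to equal medians. It was 63 without dim probe sets and 73 without any selection by name, the last chosen after seeing the data. Leaving out each array gave 62 to 76. Equal replicate numbers did not pair the samples (correlations of deviations from -0.042 to 0.128), and taking them as a replicate block gave 81. Of the 24 members higher and 35 lower in wild type leaves, 13 and 20 also had a difference of at least 1. Leaving out each array gave 23 to 24 and 35 to 37, and the replicate block 24 and 35. Benjamini-Hochberg adjustment gave 22 and 34, and SCPL7 lost its call (adjusted p = 0.0252 in limma). RNS1 passed after renewed quantile scaling (q = 0.00724). No direction reversed among the genes named by rule. The promoter comparison and its alternative were not run. Dim signal limits 11 members, whose wild type mean lay under 32 in an organ.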
